A study of Homo sapiens with 15 samples.

Results

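The 10 genes examined encode immediate early or closely related transcription factors: the FOS family (FOS, FOSB, FOSL1, FOSL2), the JUN family (JUN, JUNB, JUND), ATF3, EGR1 and MYC. They were taken by gene symbol, so the set holds 10 of the 60721 gene identifiers in the deposited table, and all 10 passed the filter on low counts. The study measured poly(A) RNA by sequencing in MCF-10A, a non-tumorigenic human mammary epithelial line, after editing of NF1, which encodes the RAS-inactivating protein neurofibromin. It holds 15 libraries in 5 genotypes of 3 libraries each. The controls were parental cells and empty vector cells, and the edited cells received guide RNA 1, guide RNA 2 or both guides.

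No group was treated, and every group grew in one medium, which held horse serum at 10%, insulin at 10 µg/mL, EGF at 20 ng/mL, hydrocortisone at 0.5 µg/mL and cholera toxin at 100 ng/mL. EGF and serum are themselves inducers of these genes, so the levels below are those of cells growing in their presence. The labels call the 3 libraries of a genotype biological replicates and do not say whether they came from separate cultures, nor whether an edited line was 1 clone or a pool. P-values therefore measure only the spread between these libraries. NF1 RNA was 115 to 159 CPM (counts divided by the library total and scaled to 1000000) in the 6 control libraries and 26 to 51.3 CPM in the 9 edited libraries. Relative to empty vector cells its log2 fold change was -1.40 for guide 1, -2.09 for guide 2 and -2.16 for both guides, and all 3 passed the edgeR test.

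Library totals ran from 46129559 to 78976917 counts, and 3 counts equalled 0.038 to 0.065 CPM. Guide 2 replicate 2 stood apart, with a correlation across 17457 genes of 0.947 to each of its mates, which correlated with each other at 0.995. Guide 1 replicate 3 correlated at 0.989 with its mates, which were at 0.995 with each other. Parental libraries were no closer, at 0.979 between replicates 1 and 2 and at 0.987 and 0.988 for the other pairs. The summed level of 11 mammary epithelial markers was 9761 CPM in guide 2 replicate 2 and 1585 and 1754 CPM in its mates, and it was lowest of all libraries, at 1354 CPM, in guide 1 replicate 3. Parental cells had 5606, 1936 and 3796 CPM. The labels call all cells epithelial, and the markers differed in how far they fell. CDH1, the E-cadherin gene, was at 0.0191, 0.152 and 0.158 CPM in guide 1 and at 0.0361 and 0.0434 CPM in guide 2 replicates 1 and 3, against 91.4 CPM in guide 2 replicate 2. In parental cells CDH1 was at 42.9, 1.79 and 37.8 CPM. TP63 was also low in guide 1, at a mean of 0.166 CPM against 50.85 CPM in the empty vector. In every library KRT5 was at 624.7 CPM or more, ITGB4 at 372.7 or more, KRT18 at 131.4 or more and KRT8 at 70.2 or more. Of the leukocyte markers, CD3E had no count and PTPRC reached at most 0.0542 CPM, while CD14 was at 3.24 to 6.95 CPM. Of the endothelial markers, CDH5 reached at most 0.0192 CPM and VWF 0.163 CPM, while PECAM1 reached 1.99 CPM and KDR 11 CPM, and KDR was higher in guide 1 than in the empty vector (1.86, adjusted p = 0.0352). The fibroblast collagen gene COL3A1 reached at most 0.0553 CPM. The fibroblast list sum, most of it from DCN, was 437.2 to 1105 CPM in guide 1, 62.2 to 407.2 CPM in guide 2, 231.9 to 256.8 CPM with both guides and 103.3 to 146 CPM in the controls. Genes of that list went both ways. COL1A1 was lower than in the empty vector in guide 1 (-1.61, edgeR adjusted p = 0.0183), guide 2 (-1.74, 0.0166) and both guides (-1.81, 0.0293). COL1A2 was lower than in parental cells in guide 1 (-2.47, 0.0227) and both guides (-2.66, 0.0125). DCN (2.87, 0.0124) and LUM (2.49, 0.0168) were higher in guide 1 than in the empty vector.

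Immediate early genes are transcribed within minutes of a growth factor signal without new protein synthesis. RAS drives the kinases ERK1 and ERK2, which phosphorylate the ternary complex factors that sit with serum response factor on CArG boxes, and which also prolong the life of several of the proteins made. FOS proteins cannot pair with themselves and bind DNA as heterodimers with JUN proteins, the factor called AP-1, whereas JUN proteins can pair with each other. FOS, FOSB, JUNB and EGR1 respond quickly and briefly, FOSL1 (FRA-1) and FOSL2 (FRA-2) accumulate later, and MYC carries growth factor signals to genes for ribosome production and metabolism.

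The upstream sequences of EGR1, JUNB and FOS are shown because EGR1 and FOS had the widest fitted spreads of the set and JUNB had a library pattern much like that of EGR1. Each is the 250 bases before the RefSeq transcription start on GRCh38.p14, plus strand, 5′ to 3′: chr5:138465229-138465478 for EGR1, chr19:12791236-12791485 for JUNB and chr14:75278578-75278827 for FOS. Capitals mark CArG boxes, CRE cores (TGACG or its reverse complement CGTCA) and TATA boxes (TATAAA or TTTATA).
EGR1: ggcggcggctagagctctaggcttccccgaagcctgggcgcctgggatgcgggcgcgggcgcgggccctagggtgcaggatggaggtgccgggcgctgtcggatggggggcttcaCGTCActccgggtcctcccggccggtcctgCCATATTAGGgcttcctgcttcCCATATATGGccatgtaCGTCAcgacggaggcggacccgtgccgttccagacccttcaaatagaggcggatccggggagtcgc
JUNB: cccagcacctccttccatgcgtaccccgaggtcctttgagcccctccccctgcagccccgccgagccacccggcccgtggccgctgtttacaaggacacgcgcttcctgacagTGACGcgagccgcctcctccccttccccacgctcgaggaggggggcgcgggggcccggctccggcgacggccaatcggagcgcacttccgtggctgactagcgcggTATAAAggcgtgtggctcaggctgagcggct
FOS: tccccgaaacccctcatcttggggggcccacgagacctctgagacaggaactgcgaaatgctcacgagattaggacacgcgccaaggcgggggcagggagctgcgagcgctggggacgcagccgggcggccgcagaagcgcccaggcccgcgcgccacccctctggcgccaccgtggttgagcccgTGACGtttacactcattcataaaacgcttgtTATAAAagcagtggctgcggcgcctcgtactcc
The EGR1 window held 2 CArG boxes, starting at -105 and -83 relative to the start site, and CRE cores at -135 and -66. A CArG box occurred in 1.16% of 35116 windows of the same length, and a CRE core in 21.2%. The JUNB window held a CRE core at -137 and a TATA box at -31, and the FOS window held a CRE core at -64 and a TATA box at -33, a TATA box being present in 10.7% of all windows. Among the 8 genes searched, EGR1 alone had a CArG box in this window, which describes these letters and says nothing of where the factor binds. Sequence further upstream than 250 bases was not searched, so a CArG box there would not be seen. JUND held a full CRE, TGACGTCA, at -200, a motif found in 1.65% of windows and one that contains the CRE core. An AP-1 site (TGACTCA or TGAGTCA, 4.2% of windows) and an E-box (CACGTG, 6.34%) were searched on both strands. Neither matched in any of the 8 genes. A JUN-type site (TGACATCA, 2.37%) matched in JUN at -67 and in 1 of 2 ATF3 windows, at -123.

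**Figure D1:**
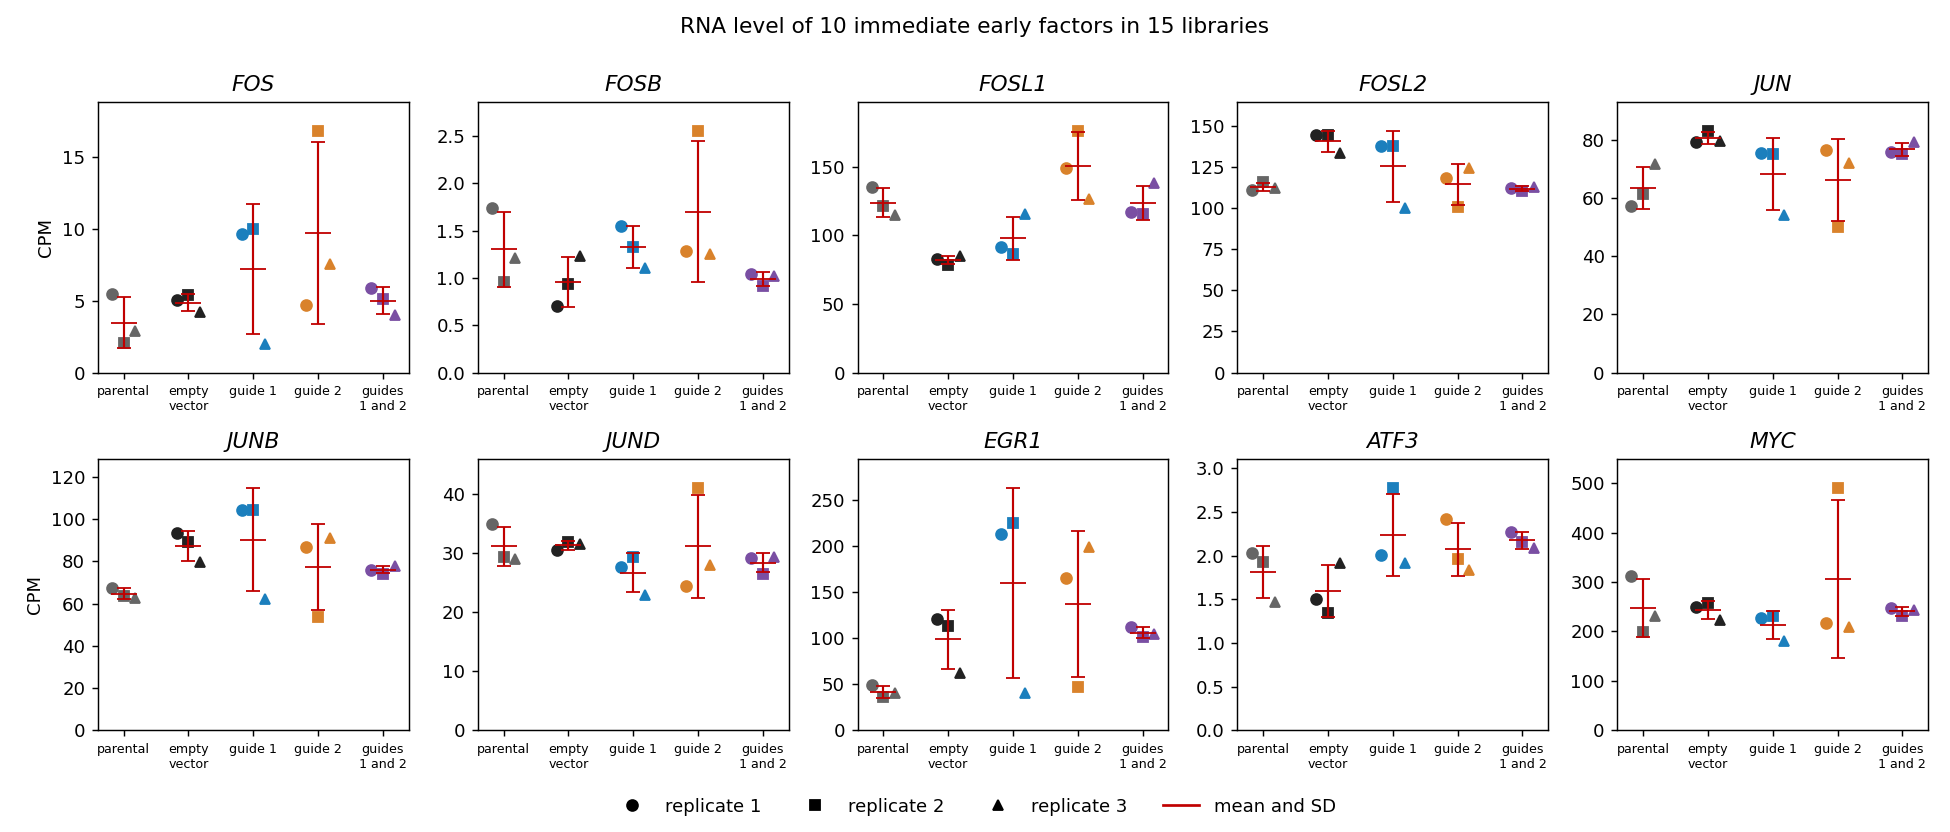
RNA level in CPM (vertical axis, from 0, a separate scale for each gene) of 10 immediate early factors in 15 libraries, by genotype. Each point is 1 library, with its shape giving the replicate number, and red bars give the mean and SD. FOSL1 was tight and lowest in the empty vector, at 78.7 to 84.9 CPM, whereas EGR1 in guide 1 ran from 40.5 to 225 CPM.

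FOSL1 (chr11:65892049-65900573, minus strand, GENCODE 29 on GRCh38; ENSG00000175592), which encodes FRA-1, was the only member whose RNA differed among the genotypes past the threshold in the edgeR fit on all 15 libraries. The 3 empty vector libraries gave 82.6, 78.7 and 84.9 CPM. Guide 2 gave 149, 176 and 127 CPM, and parental cells gave 135.3, 121.5 and 114.5 CPM. Every guide 2 and every parental library therefore lay above every empty vector library.

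The log2 fold change of FOSL1 in guide 2 against empty vector was 0.86 (SE 0.131, edgeR adjusted p = 0.0046), a 1.82-fold higher level. Parental cells were also higher than the empty vector, by 0.56 (SE 0.13, adjusted p = 0.0307), or 1.48-fold. The test of any difference among the 5 genotypes gave an adjusted p of 0.0141 for FOSL1. In a fit on guide 2 and empty vector alone, the first call was lost (adjusted p = 0.0956). The parental call was lost in 8 of 15 fits that each left out 1 library (adjusted p up to 0.116), namely any parental library, any empty vector library, or replicate 1 or 2 of the cells given both guides. The test of any difference called no member without any 1 of the 3 empty vector libraries.

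FOSL1 in cells given both guides was 117, 115 and 138 CPM, again above all 3 empty vector libraries. The log2 fold change of 0.57 (SE 0.13) did not pass (adjusted p = 0.0589). It passed without guide 1 replicate 3 (adjusted p = 0.0207) and without guide 2 replicate 2 (adjusted p = 0.0111). Guide 1 gave 91.5, 86.3 and 115 CPM, with a log2 difference from empty vector of 0.24 (adjusted p = 0.312). By mean level the genotypes ran from empty vector (82.0 ± 3.14 CPM, SD, n = 3) through guide 1 (97.7 ± 15.5), both guides (123.5 ± 12.4) and parental (123.8 ± 10.6) to guide 2 (150.6 ± 24.9). Neighbours in that order did not differ past the edgeR threshold where tested: guide 1 against empty vector gave the p above, guides 1 and 2 against guide 1 an adjusted p of 0.332, and guide 2 against parental 0.631. Guide 1 and guide 2 differed by -0.62 (adjusted p = 0.158), which passed without guide 1 replicate 3 (adjusted p = 0.00955). Over all 15 left-out fits this difference ran from -0.75 to -0.49, with edgeR adjusted p up to 0.667. In bulk RNA, a change in how many cells express a gene and a change in RNA per cell cannot be told apart.

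FOSL2 (chr2:28392448-28417312; ENSG00000075426), the gene of FRA-2, ran the other way from FOSL1 in the controls but passed the edgeR test on all libraries in no comparison. It was at 145, 144 and 133 CPM in the empty vector libraries and at 111, 116 and 112 CPM in the parental libraries, without overlap. The log2 difference was -0.35 (adjusted p = 0.103). Cells given both guides lay at 112, 110 and 113 CPM, all below the empty vector, at -0.35 (adjusted p = 0.164), and guide 2 at 118, 101 and 125 CPM, at -0.31 (adjusted p = 0.155). Guide 1 replicates 1 and 2, at 138 CPM each, overlapped the empty vector, and replicate 3 had 100.3 CPM, the lowest level of the 15 libraries. Without guide 1 replicate 3, FOSL2 passed as lower than empty vector in parental cells (adjusted p = 0.0145), guide 2 (0.0258) and both guides (0.0252). Voom with sample quality weights called those 3 differences (adjusted p 4.39e-05, 0.00216 and 3.84e-05), and a fit on only the compared groups called parental (0.021) and both guides (0.00152). An antisense gene, FLJ31356, overlaps FOSL2, and the use of strand in counting is not given in the sources used here.

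FOS (chr14:75278774-75282230; ENSG00000170345), the prototype of the family, was at a low level with wide spread. Guide 1 gave 9.67, 9.99 and 1.98 CPM, and guide 2 gave 4.73, 16.9 and 7.57 CPM, so the lowest and the highest of all 15 libraries were both edited. The empty vector libraries lay at 5.02, 5.40 and 4.20 CPM, parental cells at 5.46, 2.08 and 2.90 CPM, and cells given both guides at 5.90, 5.12 and 4.0 CPM. The log2 fold change was 1.07 in guide 1 against parental (adjusted p = 0.287) and 0.98 in guide 2 against empty vector (adjusted p = 0.373). The fitted biological coefficient of variation of FOS was 46.6%, against 12.4% for FOSL1.

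FOSB (chr19:45467995-45475179; ENSG00000125740) had the lowest mean level per kilobase in every genotype, and in CPM it ran from 0.70 to 2.56 CPM, with 40 counts in its lowest library. In guide 2 it was at 1.28, 2.56 and 1.26 CPM, just above the empty vector libraries at 0.70, 0.94 and 1.23 CPM. The log2 fold change of 0.81 did not pass (adjusted p = 0.187). ERCC1 lies on the opposite strand over FOSB, so reads of the pair may not be separable.

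Compared per kilobase of longest transcript, FOSL1 made up most of the FOS family RNA in every genotype. Its share was 67.6% ± 1.86 (SD, n = 3) in the empty vector, 79.7% ± 0.869 in parental cells, 72.1% ± 7.8 in guide 1, 80.2% ± 2.62 in guide 2 and 79.3% ± 1.78 with both guides. The FOSL2 share was 28.9% ± 1.5 in the empty vector and between 15.6% and 23.3% elsewhere as genotype means. FOS stayed between means of 1.71% and 4.22%, and FOSB at or under 0.437%. The empty vector libraries, at 66 to 69.6%, did not overlap the FOSL1 shares of parental cells, guide 2 or both guides, but did overlap guide 1, whose lowest share was 66.9%. These shares rest on lengths of 6708 bases for FOSL2 and 1669 for FOSL1, and the transcripts used in these cells were not determined. In CPM, mean FOSL2 exceeded mean FOSL1 in the empty vector (140.9 against 82.0) and guide 1 (125.4 against 97.7). In the other genotypes mean FOSL1 was the higher. The shares are a description and were not tested.

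**Figure D2:**
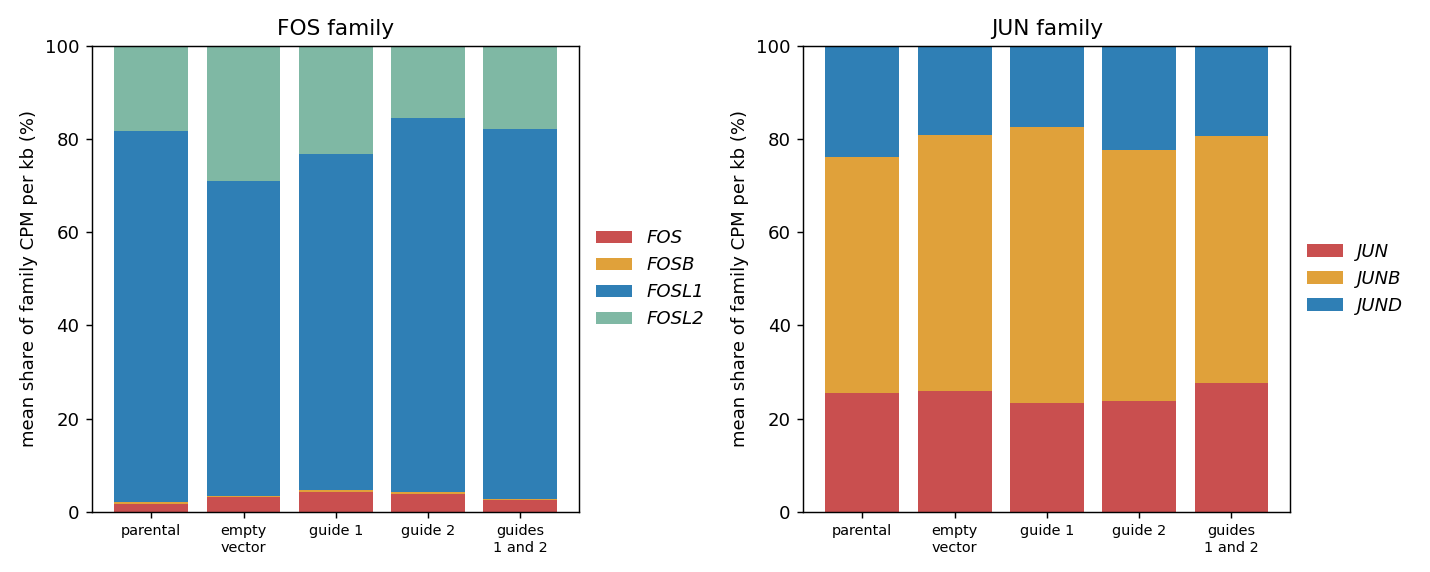
Mean share (%, vertical axis) of each subunit in the summed CPM per kilobase of the FOS family (left) and the JUN family (right), by genotype, each bar being the mean of 3 libraries. FOSL1 held 67.6% of the FOS family in the empty vector and 80.2% in guide 2, and JUNB held 50.6% to 59.2% of the JUN family.

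In the JUN family, JUNB was the largest part per kilobase in every genotype, with mean shares from 50.6% in parental cells to 59.2% in guide 1. JUN mean shares ran from 23.3% to 27.6%, and JUND mean shares from 17.5% to 23.8%. No JUN family gene passed the edgeR test on all libraries in any comparison. Voom with sample quality weights called JUNB in 9 of the 12 comparisons, JUN in 2 and JUND in 2. It called 15.2% to 68% of all genes over these comparisons.

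JUNB (chr19:12791496-12793315; ENSG00000171223), a subunit known to restrain JUN activity in many settings, had a low and tight level in parental cells, at 67.56, 63.62 and 62.65 CPM. In guide 1 it was at 104, 104 and 62.06 CPM, and in guide 2 at 86.9, 53.8 and 91.0 CPM. Thus 2 of 3 libraries of guide 1 and of guide 2 lay above every parental library and the remaining one below it. The empty vector libraries (93.3, 89.3 and 79.6 CPM) and those given both guides (76.1, 74.2 and 77.6 CPM) all lay above the parental ones. The log2 fold change against parental was 0.50 for guide 1 (adjusted p = 0.217) and 0.24 for both guides (adjusted p = 0.752), and parental against empty vector gave -0.47 (adjusted p = 0.221). Guide 1 against parental passed without guide 1 replicate 3 (0.72, adjusted p = 0.0252) and without guide 2 replicate 2 (0.51, adjusted p = 0.0415). Over all 15 left-out fits it ran from 0.38 to 0.72, with edgeR adjusted p up to 0.584. A fit on only the compared groups called parental against empty vector (adjusted p = 0.019). HOOK2, on the opposite strand, overlaps JUNB.

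JUN (chr1:58780788-58784327; ENSG00000177606), the founding partner of FOS, varied less. It was at 79.3, 83.1 and 79.4 CPM in the empty vector, above all parental libraries at 57.3, 61.4 and 71.5 CPM. That log2 difference was -0.38 (adjusted p = 0.2), and it passed without guide 2 replicate 2 (adjusted p = 0.0392) and in a fit on only those groups (0.0487). Its lowest levels were 50.1 CPM in guide 2 replicate 2 and 54.0 CPM in guide 1 replicate 3, while the other guide 1 and guide 2 libraries lay between 71.9 and 76.3 CPM. With both guides JUN was at 75.7, 75.1 and 79.4 CPM, a difference of 0.28 from parental (adjusted p = 0.586).

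JUND (chr19:18279760-18281622; ENSG00000130522), the family member usually expressed without stimulation, ranged from 22.9 CPM in guide 1 replicate 3 to 40.9 CPM in guide 2 replicate 2. Guide 1 (27.7, 29.3 and 22.9 CPM) lay below the empty vector (30.4, 31.8 and 31.4 CPM) without overlap, with a log2 difference of -0.24 (adjusted p = 0.415). Its genotype means lay between 26.6 ± 3.29 CPM in guide 1 and 31.2 ± 0.757 CPM in the empty vector (SD, n = 3).

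ATF3 (chr1:212565334-212620777; ENSG00000162772), a stress-inducible partner of JUN proteins, was low throughout, from 1.35 to 2.77 CPM. Cells given both guides, at 2.28, 2.16 and 2.09 CPM, lay above all empty vector libraries, at 1.51, 1.35 and 1.92 CPM. Guide 1 (2.01, 2.77 and 1.91 CPM) and guide 2 (2.42, 1.96 and 1.84 CPM) overlapped them. The log2 fold changes against empty vector were 0.48 for guide 1 (adjusted p = 0.208), 0.37 for guide 2 (0.386) and 0.43 for both guides (0.402), all positive and none past the edgeR threshold. Voom with sample quality weights called all 3 (adjusted p 0.00726, 0.0337 and 0.0154).

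EGR1 (chr5:138465490-138469315; ENSG00000120738), a zinc finger factor whose transcription is a common readout of ERK activity, had the widest differences between genotype means and no call in the edgeR fit on all libraries. Parental libraries were at 49.3, 36.6 and 40.2 CPM and empty vector libraries at 121, 113 and 62.0 CPM. Guide 1 gave 213, 225 and 40.5 CPM, guide 2 gave 165, 47.4 and 199 CPM, and both guides gave 113, 101 and 105 CPM. The 4 highest libraries were guide 1 replicates 1 and 2 and guide 2 replicates 1 and 3, and the remaining library of each line fell within the parental range.

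Against parental cells the log2 fold change of EGR1 was 1.95 (SE 0.57) in guide 1, 1.73 (SE 0.567) in guide 2 and 1.35 (SE 0.561) with both guides, with edgeR adjusted p of 0.166, 0.457 and 0.448. Both guides did not overlap with parental cells, nor did the empty vector, from which parental cells differed by -1.26 (adjusted p = 0.234). Against the empty vector the difference was 0.69 for guide 1 (adjusted p = 0.506) and 0.47 for guide 2 (adjusted p = 0.703). The mean of the edited lines exceeded that of both controls by 1.05 (adjusted p = 0.178). DESeq2 called EGR1 in guide 1 against parental (adjusted p = 0.0413), and voom with sample quality weights called all 7 of these differences (highest adjusted p 0.0354). Fits on only the compared groups called both guides against parental (0.00542) and parental against empty vector (0.0291).

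The EGR1 calls changed when 1 library was left out. Guide 1 replicate 3 and guide 2 replicate 2 had the lowest EGR1 of their lines, so leaving either out had to raise that line. Without guide 1 replicate 3, guide 1 against parental was 2.41 (SE 0.442, adjusted p = 0.00817). Without guide 2 replicate 2, guide 2 against parental was 2.13 (SE 0.488, adjusted p = 0.0245), guide 1 against parental passed at 1.96 (adjusted p = 0.0174), and the edited mean against the control mean passed (1.17, adjusted p = 0.0164). Neither removal made EGR1 pass in an edited line against the empty vector (lowest adjusted p 0.131) or in parental against empty vector (0.0892 and 0.0741). Over all 15 left-out fits, guide 1 against parental ran from 1.61 to 2.41 (edgeR adjusted p 0.00817 to 0.568). Guide 2 against parental ran from 1.36 to 2.13 (0.0245 to 0.989), and the edited against the control mean from 0.92 to 1.2 (0.0164 to 0.425). EGR1 was low in the library with the highest epithelial marker sum among the 15 (guide 2 replicate 2, 9761 CPM) and in the one with the lowest (guide 1 replicate 3, 1354 CPM). The part of cell state in the EGR1 level was not tested.

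MYC (chr8:127735434-127741434; ENSG00000136997) had the highest mean level per kilobase of the set in every genotype and little difference between genotypes outside 1 library. The values were 312, 198 and 232 CPM in parental cells, 249, 257 and 223 CPM in the empty vector, 226, 232 and 180 CPM in guide 1, and 247, 231 and 243 CPM with both guides. In guide 2 it was at 217 and 209 CPM in replicates 1 and 3 and at 489.6 CPM in replicate 2. The log2 fold change in guide 2 against empty vector, 0.31 (adjusted p = 0.584), became -0.22 without guide 2 replicate 2. Guide 1 against guide 2, at -0.51 (adjusted p = 0.348), became 0.01 without that library. Both directions thus rested on 1 library.

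Across the 10 genes, calls were few in each comparison. Guide 2 against empty vector called 1 of 10 (FOSL1), where 3.94% of 17457 genes were called. Parental against empty vector also called 1 (FOSL1), where 4.37% of genes were called. The test of any difference called 1 (FOSL1), where 4.3% were called. At an unadjusted p under 0.05 these comparisons held 3, 5 and 3 members, beside 18.9%, 19.8% and 22.1% of all genes.

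The other 9 comparisons called 0 of 10 with edgeR. For each, the share of all genes called comes first and the members at an unadjusted p under 0.05 follow, beside the share of all genes at that p. Guide 1 against empty vector had 5.88% of genes called, and 1 member unadjusted beside 21.4% of genes. Both guides against empty vector had 0.962%, and 2 members beside 14%. Against parental cells, guide 1 had 0.149%, and 3 members beside 19.9%, guide 2 had 0.0516%, and 3 beside 7.37%, and both guides had 0.195%, and 1 beside 9.98%. The mean of the edited lines against that of the controls had 1.51%, and 3 members beside 15.8%. Between edited lines, guide 1 against guide 2 had 0.0401%, and 1 member beside 15.2%, both guides against guide 1 had 0.275%, and 1 beside 13%, and both guides against guide 2 had 0.149%, and 2 beside 5.8%.

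Other tools gave other counts. Where edgeR called none, DESeq2 called 1 member in both guides against empty vector (FOSL1), in guide 1 against parental (EGR1) and in guide 1 against guide 2 (FOSL1), and none in the other 6 of those comparisons. The shares of all genes that DESeq2 called are not given here, so its member counts cannot be read against them. Voom with sample quality weights, which gives less weight to libraries that stand apart, called a higher share of all genes than edgeR in each comparison. Against empty vector it called 4 members in guide 1 (FOS, FOSB, EGR1 and ATF3) beside 42.5% of all genes, 6 in guide 2 beside 33.2% and 4 with both guides beside 26.7%. Against parental cells it called 6 in guide 1 (FOS, FOSL1, FOSL2, JUNB, EGR1 and ATF3) beside 52.9%, 4 in guide 2 beside 32.5% and 3 with both guides beside 21.3%. It called 5 in parental against empty vector beside 36.3%, 6 for the means beside 42% and 8 for any difference beside 68%. Between edited lines it called 2 in guide 1 against guide 2 beside 20.2%, 6 in both guides against guide 1 beside 46.5% and 2 in both guides against guide 2 beside 15.2%.

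The median log2 fold change of the 10 genes against empty vector was 0.14 in guide 1, 0.34 in guide 2 and -0.01 with both guides, where the medians over all tested genes were 0.02, 0.03 and 0.00. Against parental cells the medians were 0.15, 0.29 and 0.12, beside 0.00, 0.02 and -0.02. For parental against empty vector the median was -0.19, beside 0.01. These comparisons share control libraries and are not independent of each other.

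**Figure D3:**
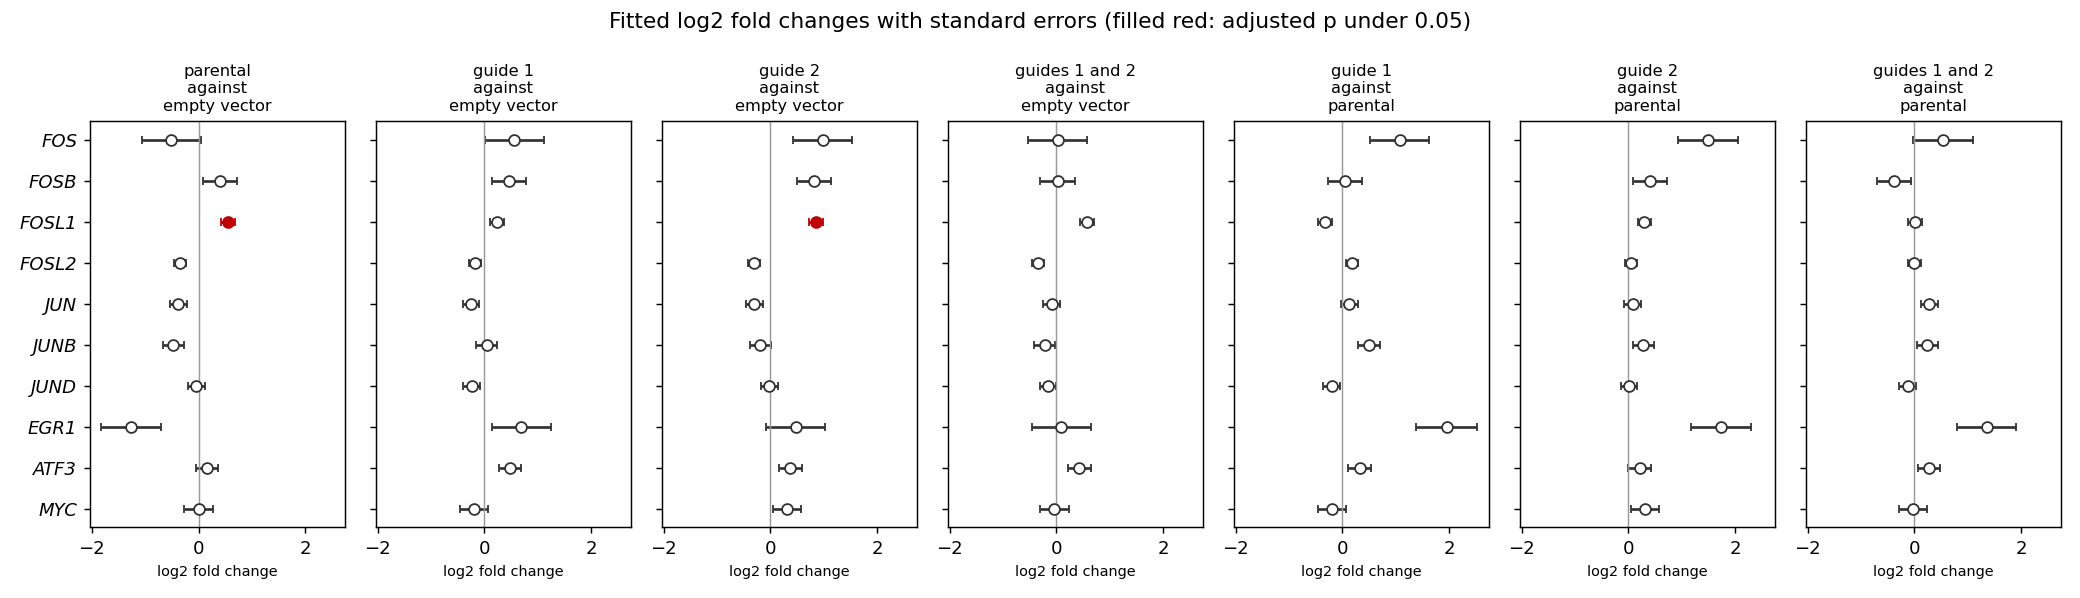
Fitted log2 fold change (horizontal axis) with its standard error for 10 genes in 7 comparisons, from the edgeR fit on 15 libraries, with filled red points for an adjusted p under 0.05. FOSL1 is filled in parental and in guide 2 against empty vector, at 0.56 and 0.86, and the widest bars belong to EGR1 and FOS.

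Without overlap between libraries, 5 of 10 genes separated parental from empty vector cells, FOSL1 higher and FOSL2, JUN, JUNB and EGR1 lower, beside 32.1% of all genes tested. Both guides against empty vector also separated 5, FOSL1 and ATF3 higher and FOSL2, JUNB and JUND lower, beside 37.7%. Guide 2 against empty vector separated 4 (23.1% of genes), and guide 1 against empty vector 3 (36.2%). Against parental cells, both guides separated 4, namely JUN, JUNB, EGR1 and ATF3, all higher (23.1%), and guide 1 and guide 2 separated 0, beside 24% and 9.38%.

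Several extremes of the 10 genes fell in guide 2 replicate 2 and guide 1 replicate 3. Guide 2 replicate 2, which correlated at 0.947 with its mates over all tested genes, was the highest of 15 for FOS, FOSB, FOSL1, JUND and MYC. It was the lowest for JUN and JUNB. Guide 1 replicate 3 was the lowest for FOS, FOSL2, JUND and MYC. The share of all genes with an extreme in these libraries was not counted, so this may not be particular to the 10 genes. In these edited libraries EGR1 and JUNB were both low, at 47.4 and 53.8 CPM in guide 2 replicate 2 and at 40.5 and 62.1 CPM in guide 1 replicate 3. FOS did not move with them, being at 16.9 CPM in the former and 1.98 CPM in the latter.

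Leaving out guide 2 replicate 2, 1 member was called in guide 2 against empty vector (FOSL1, 14.5% of genes called) and 2 in both guides against empty vector (FOSL1 and FOSL2, 6.7%). Against parental cells 2 were called in guide 1 (JUNB and EGR1, 14.5%) and 1 in guide 2 (EGR1, 5.96%). Parental against empty vector held 3 (FOSL1, FOSL2 and JUN, 13.9%), the comparison of means 2 (FOSL1 and EGR1, 18%) and the test of any difference 2 (FOSL1 and EGR1, 23.7%). The share of all genes called was also higher than with all 15 libraries in each of these comparisons. The others called 0 members: guide 1 against empty vector (18.1% of genes called), both guides against parental (2.62%), guide 1 against guide 2 (0.162%), both guides against guide 1 (4.55%) and both guides against guide 2 (1.83%).

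Leaving out guide 1 replicate 3 instead, guide 1 against parental held 3 (FOSL2, JUNB and EGR1, 7.64% of genes called), and guide 2 and both guides against empty vector held 2 each (FOSL1 and FOSL2, 6.1% and 3.37%). Parental against empty vector held 2 (FOSL1 and FOSL2, 7.22%) and the test of any difference 3 (FOSL1, FOSL2 and EGR1, 9.94%). Between edited lines, FOSL1 was called in guide 1 against guide 2 (3.31% of genes) and FOSL2 in both guides against guide 1 (4.61%). The others called 0: guide 1 against empty vector (5.46%), guide 2 against parental (0.078%), both guides against parental (0.301%), the means (1.61%) and both guides against guide 2 (0.195%).

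**Figure D4:**
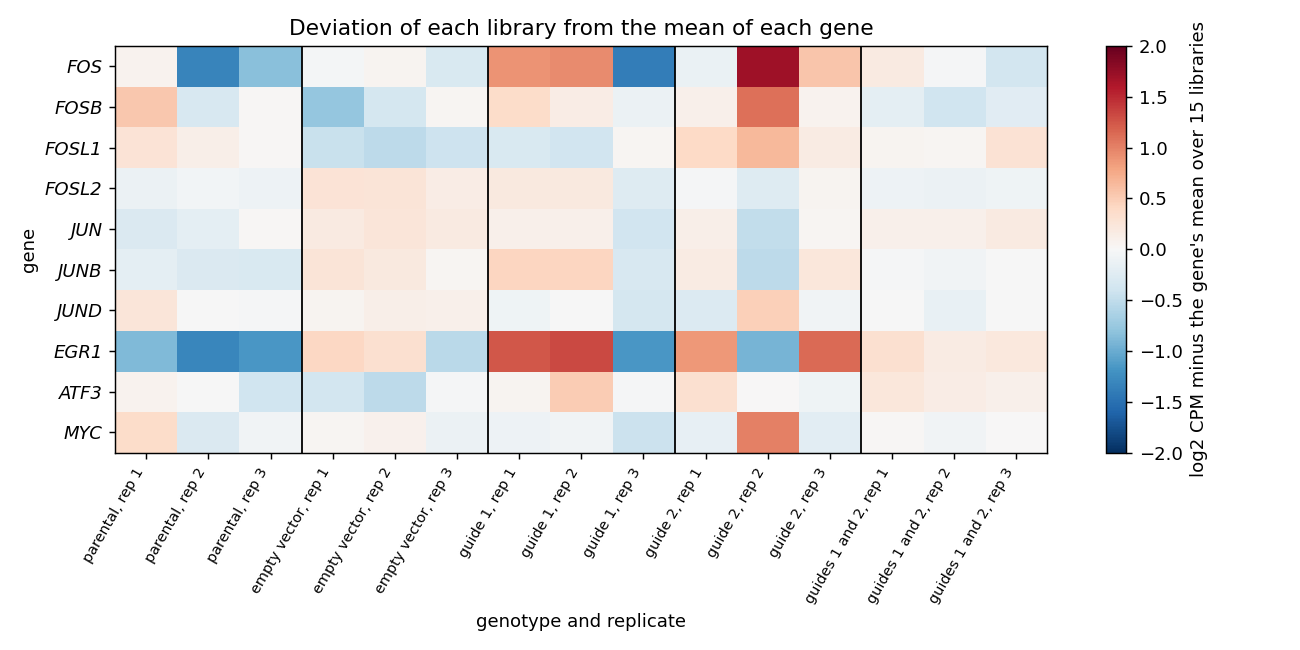
Deviation of log2 CPM from the mean of each gene (colour, red above and blue below, limits -2 to 2) for 10 genes (vertical) in 15 libraries (horizontal, black lines between genotypes). Guide 1 replicate 3 and guide 2 replicate 2 differ in colour from their mates, EGR1 being at 40.5 and 47.4 CPM there and at 165 CPM or more in the other 4 libraries of guides 1 and 2.

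Over the 15 libraries, which share genotype and the libraries just named, JUNB and EGR1 had the most similar log2 CPM of any member pair (Pearson r = 0.91). JUND and MYC followed (r = 0.87), then FOSL2 and JUNB (r = 0.86), while FOS and FOSL1 were at r = 0.08. Among 11633 genes of average log2 CPM at least 1, the nearest to EGR1 were GADD45A (r = 0.931), a DNA damage and stress gene, and CCN2 (r = 0.928), a secreted matricellular protein gene. CCN2 was at 551, 543 and 195 CPM in guide 1 and at 553, 95.2 and 549 CPM in guide 2. The nearest to JUNB were VMP1 (r = 0.958) and SGK1 (r = 0.945), and the nearest to FOSL1 were SLC4A2 (r = 0.957) and PPP5C (r = 0.955). JUND was nearest to CCND2 (r = 0.932) and to KRT5 (r = 0.922), a basal keratin, and MYC to NDUFB9 (r = 0.973) and IDH3B (r = 0.966). For FOS these were TRIM35 (r = 0.943) and DMTF1 (r = 0.878), for FOSB COPG2 (r = 0.904) and TCFL5 (r = 0.897), for FOSL2 IFNGR1 and NEPRO (r = 0.940 each), for JUN CYTH1 (r = 0.954) and ENSG00000275993 (r = 0.950), and for ATF3 AKIP1 (r = 0.817) and NUDT16L1 (r = 0.769).

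Other immediate early genes were read from a list of 24, of which 22 were tested. In guide 1 against empty vector 1 rose and 2 fell, beside 5.88% of all genes called. ZFP36, an mRNA decay factor, changed by 0.49 (adjusted p = 0.0363), IER3, a stress and survival gene, by -1.22 (adjusted p = 0.00756), and KLF6, a zinc finger factor, by -0.53 (adjusted p = 0.0376). In parental against empty vector 3 fell, namely IER3 (-0.91, adjusted p = 0.03), IER5 (-0.35, adjusted p = 0.0313) and KLF6 (-0.57, adjusted p = 0.033). Of all genes, 4.37% were called in that comparison. None of the list was called in guide 2 or both guides against empty vector, beside 3.94% and 0.962% of all genes. None was called in any edited line against parental cells, beside 0.0516% to 0.195%. The list median against parental was 0.29, 0.23 and 0.29 in guide 1, guide 2 and both guides, and 0.12, 0.15 and 0.06 against empty vector. Medians over all tested genes lay between -0.02 and 0.03 in these comparisons.

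The summed CPM of that list was 3077, 2988 and 1890 in guide 1 and 3146, 1434 and 3065 in guide 2. Parental cells had 1699, 1945 and 1813, the empty vector 2628, 2523 and 2092, and both guides 2447, 2401 and 2448. Guide 1 replicate 3 and guide 2 replicate 2 were the low libraries of their lines, as they were for EGR1. Within parental cells the order was the reverse of that of EGR1.

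Of 10 regulators of these promoters, SRF, which binds CArG boxes, was lower in guide 1 (-0.40, adjusted p = 0.00668) and in parental cells (-0.36, adjusted p = 0.0127) than in the empty vector. MRTFA, its actin-sensing coactivator, was lower in guide 1 (-0.41, adjusted p = 0.0335) and guide 2 (-0.43, adjusted p = 0.0316). No other regulator was called against either control. Of 9 further AP-1 family and partner genes, 8 were tested and 1 was called, BATF3 in parental against empty vector (-1.45, adjusted p = 0.0261). The shares of all genes called against empty vector were 5.88% in guide 1, 3.94% in guide 2 and 4.37% in parental cells.

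Among 14 genes with AP-1 dependent promoters, 6 were called lower in guide 1 than in the empty vector and none higher: MMP1, MMP9, MMP10, PLAU, IVL and HBEGF. Of all genes tested, 5.88% were called there, 228 higher and 798 lower. Several of the 6 were low and variable in the empty vector. MMP1 was at 0.467 ± 0.437 CPM (SD, n = 3), MMP10 at 0.719 ± 0.753, IVL at 3.04 ± 2.44 and MMP9 at 7.22 ± 9.76. The list median was -1.72, and it was the same with MMP9, which had no count in guide 1, placed at 3 counts per library. PLAU, the urokinase gene, was at 160.1 ± 83 CPM (SD, n = 3) in the empty vector, 35.4 ± 0.978 in guide 1 and 42.1 ± 5.65 in guide 2, a log2 difference of -2.20 (adjusted p = 0.00312) and -1.95 (adjusted p = 0.00525). HBEGF, which encodes an EGF receptor ligand, was lower in guide 1 (-2.11, adjusted p = 0.00976) and in parental cells (-1.94, adjusted p = 0.0164). In guide 2, 3 were called lower (MMP9, MMP10 and PLAU, list median -1.06), beside 3.94% of all genes called. With both guides none was (list median -1.22), beside 0.962%. Against parental cells none was called in any edited line, beside 0.0516% to 0.195% of all genes, with list medians of -0.21, 0.12 and 0.00. Over all tested genes the medians of the edited lines against either control lay between -0.02 and 0.03. In the same comparison of guide 1 with empty vector, 5 of 11 epithelial markers were also lower (KRT17, CDH3, LAMA3, KRT18 and CDH1), beside the same 5.88% of all genes. The part of that epithelial change in the AP-1 list was not tested.

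For MYC, 18 target genes for ribosome production and metabolism were tested and none was called in any edited line against either control, or between the controls. Of all genes, 0.0516% to 5.88% were called in these comparisons. The summed level of these targets was highest, at 7947 CPM, in guide 2 replicate 2, the library with the highest MYC, and next highest, at 7356 CPM, in parental replicate 1, which had the next highest MYC. In 2 other libraries the levels did not run together: guide 1 replicate 3, with the lowest MYC, had a target sum of 6245 CPM, above its mates at 5295 and 5312 CPM, and empty vector replicate 2, next in MYC after the top 2, had 5725 CPM. Of 11 MYC network partners 9 were tested, and MLXIP alone was called. It was lower than in the empty vector in guide 2 (-0.38, adjusted p = 0.0264) and in parental cells (-0.42, adjusted p = 0.0187), beside 3.94% and 4.37% of all genes. MYCN had no count in any library.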

How the data were processed

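The authors deposited whole-number read counts per gene for 15 libraries, and CPM, which equal the counts divided by library totals to within 4.91e-11. Trim Galore 0.6.0, STAR 2.7.8a and GRCh38 are named per the submitters' processing notes. The counting program, annotation and use of strand are not given in the sources used here. The library kit was KAPA mRNA HyperPrep, per the labels' protocols. Library totals had a median of 55942785 counts, and intervals or floors cover counting error only.

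Counts were tested with edgeR 4.0.16 (R 4.3.3): filterByExpr by genotype (17457 genes kept), TMM scaling, and 1 quasi-likelihood group-means fit on all 15 libraries with 10 residual degrees of freedom. Tests were two-sided, with Benjamini-Hochberg adjustment over all tested genes and a threshold of 0.05. Each standard error is |log2 fold change| over the square root of F. Printed levels are unscaled CPM. For correlations, log2 CPM were computed with prior count 2. The members and lists were chosen with earlier results of these data known. Besides the members and NF1, named genes are up to 4 per list with the lowest adjusted p under 0.05 and the 2 genes most correlated with each member; MMP1, IVL and the epithelial markers in list counts, and marker genes given as checks, are named because the counts or checks hold them.

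Alternatives were RLE scaling, no filter, a replicate block, only the compared groups, DESeq2 1.42.0, voom with sample quality weights (limma 3.58.1), and each library left out. Promoter windows are RefSeq sequences, and 8 of the 10 members were searched. MYC was not looked up, and no window was found for FOSL1. Positions come from GENCODE 29. The fit was tested on simulated data with 200 genes changed 2-fold in guide 2. Against the empty vector it recovered 48% of them, and 4% of its calls were false, so changes of that size can be missed. Python 3.11.15, numpy 2.4.6, pandas 2.3.3 and matplotlib 3.10.9 were used.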

Additional observations from a re-analysis of the deposited data

How the results depend on the processing

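The 36 fold changes of single genes were recomputed under 6 other settings and with each of the 15 libraries left out. Of 756 values, 692 kept their direction and side of the threshold, 10 lost and 50 gained a call, and 4 reversed: MYC in guide 2 against empty vector, to -0.21 with voom and -0.22 without guide 2 replicate 2, and MYC in guide 1 against guide 2, to 0.06 and 0.01. Over the left-out fits these ran from -0.22 to 0.51 and from -0.72 to 0.01. FOSL1 in guide 2 against empty vector held in all 15 left-out fits (0.72 to 0.96, adjusted p 0.00201 to 0.0238).

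Members called with voom numbered 4 in guide 1, 6 in guide 2 and 4 in both guides against empty vector, 6, 4 and 3 against parental, 5 in parental against empty vector, 6 for the means, 2 in guide 1 against guide 2, 6 in both guides against guide 1, 2 against guide 2, and 8 for any difference, beside 15.2% to 68% of all genes. With only the compared groups they numbered 0 in guide 2 and 3 in both guides against empty vector. They numbered 1 in both guides against parental and 5 in parental against empty vector. Both guides against empty vector had 1 with no filter and 1 with DESeq2. DESeq2 also gave 1 in guide 1 against parental and 1 in guide 1 against guide 2. Shares of all genes called with only the compared groups, no filter or DESeq2 are not given, so those member counts cannot be read against them. RLE scaling moved no member count. Left-out fits gave ranges of 1 to 2 in guide 2 and 0 to 2 in both guides against empty vector, 0 to 3 in guide 1 and 0 to 1 in guide 2 against parental, 0 to 3 in parental against empty vector, 0 to 2 for the means, 0 to 1 in guide 1 against guide 2, 0 to 1 in both guides against guide 1, and 0 to 3 for any difference. The cause was not tested.

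The replicate block left 0 members in parental against empty vector (FOSL1 adjusted p = 0.0641) and changed no other member count. Whether equal numbers mark paired libraries is not settled here. Deviations from genotype means had a mean correlation of -0.0497 over 30 same-numbered pairs and 0.0276 over 60 others. Centring on genotype means ties these values to each other, so they cannot decide it.

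Counts over all genes moved widely. Guide 1 against empty vector had 1026 called, 215 to 3236 in left-out fits and 567 to 7424 in the others. For guide 2 these were 687, 170 to 2581 and 13 to 5804, and for both guides 168, 21 to 1196 and 69 to 4666. Against parental, guide 1 had 26, 6 to 2591 and 9 to 9230, guide 2 had 9, 2 to 1064 and 1 to 5682, and both guides had 34, 4 to 467 and 22 to 3725. Parental against empty vector had 762, 145 to 2484 and 400 to 6343. The genotype mean comparison had 263, 59 to 3213 and 111 to 7328, and any difference 751, 198 to 4227 and 299 to 11865. Guide 1 against guide 2 had 7, 2 to 593 and 0 to 3524, both guides against guide 1 had 48, 4 to 827 and 20 to 8113, and against guide 2 had 26, 2 to 327 and 2 to 2650. Depth limits FOSB most, at 40 counts in its lowest library.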
